A study of Mus musculus with 6 samples.

Results

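The nuclear-encoded subunits of the mitochondrial respiratory chain and of ATP synthase were followed by RNA-seq in GFP+ cells sorted from the AGM (aorta-gonad-mesonephros) of mouse embryos, an early site of blood stem cell formation along the aorta. The genes were taken by symbol: Nduf genes of the a, b, c, s and v series with a number, Sdha to Sdhd, Uqcr genes, Cox4 to Cox8 genes with a letter a, b or c after the number, and Atp5 genes. Of 51912 listed genes, 86 matched: 38 of complex I, 4 of complex II, 8 of complex III, 19 of complex IV and 17 of complex V. The 7 matching symbols that contain -ps were left out. Enough reads for a test were found for 77 of the 86 genes.

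The CD206pos group held 3 libraries of GFP+ cells that were positive for CD206, the mannose receptor encoded by Mrc1, and the CD206neg group held 3 libraries of GFP+ cells negative for it. Both came from MacGreen embryos at E10.5, in which the Csf1r promoter drives EGFP, a reporter that also marks some precursors of macrophages. Embryos of 3 independent litters were used, and each library pooled cells of 3 to 5 AGM. Every sample had a digestion of 45 min at 37 °C. Libraries with the same number are read here as 1 litter, from the numbers in the titles. The libraries held 16730846 to 18214283 reads assigned to genes, and levels are given as CPM, with library sizes scaled by TMM. A count of 3 reads amounts to 0.165 to 0.179 CPM before that scaling.

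The respiratory chain sits in the inner mitochondrial membrane. Complex I (NADH dehydrogenase) and complex II (succinate dehydrogenase) pass electrons to ubiquinone, complex III (cytochrome bc1) passes them to cytochrome c, and complex IV (cytochrome c oxidase) passes them to oxygen. Complexes I, III and IV pump protons, and complex V (ATP synthase) uses the gradient to make ATP. A small set of subunits is encoded by mitochondrial DNA, while complex II and most subunits of the other complexes are encoded in the nucleus. In macrophages the balance of oxidative phosphorylation and glycolysis is known to differ between activation states, and blood progenitors and their descendants are known to differ in it as well.

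Mrc1 had 1458, 1792 and 1506 CPM in CD206pos cells, against 51.6, 119 and 112 CPM in CD206neg cells, in the direction of the sort. The markers of other cell types differed between the groups. The sum of 9 macrophage markers was 5658 to 8497 CPM in CD206pos cells, against 4140 to 4975 CPM in CD206neg cells, and 4 of the 9 were called higher in CD206pos cells (Adgre1, Cd68, Aif1 and Fcgr1). Over the 19 alternatives Adgre1 was called in 17, Cd68 in 13 and Aif1 in 12, always higher. The sum of 8 haematopoietic progenitor markers was 29.7 to 83.0 CPM in CD206pos cells, against 2422 to 2957 CPM in CD206neg cells. Of these 8 genes 7 were called lower in CD206pos cells, and Kit had 0 reads in all CD206pos libraries. The 9 granulocyte precursor markers summed to 14.1 to 47.3 CPM in CD206pos cells, against 366 to 697 CPM in CD206neg cells, with 6 of the 9 at 0 reads in all CD206pos libraries. Megakaryocyte markers summed to at most 3.99 CPM in CD206pos cells, against 78.7 to 114 CPM in CD206neg cells, and endothelial markers to 31.2 to 66.8 CPM in CD206pos cells, against 104 to 162 CPM in CD206neg cells. Erythroid markers summed to 12.8 to 16.4 CPM in CD206pos cells, against 9.02 to 11.1 CPM in CD206neg cells. Of the 6 tested, Gata1 alone was called, and it was lower in CD206pos cells. Mesenchymal markers ranged up to 60.8 CPM in CD206pos and 74.9 CPM in CD206neg libraries. The 14 cell division genes summed to 6130 to 6738 CPM in CD206pos cells, against 6755 to 7403 CPM in CD206neg cells. Of these, 0 were called, against 4.87% of all tested genes. The CD206pos libraries lay wholly below the CD206neg libraries for 3 of the 14 and wholly above for 0. Over all tested genes these shares were 11.8% and 12.8%. The GFP+ CD206neg cells, called macrophages in the labels, held RNA of progenitor and granulocyte precursor genes beside that of macrophage genes. The part of this mixture in the values of the respiratory chain was not tested, and in bulk samples a different number of cells of a type and a different amount of RNA per cell cannot be told apart.

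No gene of the respiratory chain set was called between CD206pos and CD206neg cells. At an adjusted p under 0.05 (edgeR's quasi-likelihood test with Benjamini-Hochberg adjustment over all genes tested), 0 of 77 were called higher in CD206pos cells and 0 of 77 lower, while 2.97% of the 12668 tested genes were called higher and 1.9% lower (4.87% in all). At an unadjusted p under 0.05 there was 1 of 77, Cox7a1, against 17.6% of all tested genes. Without CD206pos replicate 1 there were 9 others of 77 (Atp5f1, Ndufa6, Atp5c1, Cox7b, Ndufs6, Ndufb3, Uqcrh, Uqcrc2 and Ndufs4) and Cox7a1 was not among them. Without replicate 1 of both groups there were 4 of 77 (Ndufa6, Atp5f1, Ndufb3 and Cox7b). In these fits 19 and 24 of the 77 members had a positive log2 fold change. The share of 17.6% belongs to the fit with all libraries. The share of all genes at this p is not given for the fits with libraries left out, so these counts are not read as a result about the members. The 3 CD206pos libraries lay wholly above or below the 3 CD206neg libraries for 4 of 77 genes (5.19%), against 24.6% of all tested genes. Of these 4, Cox7a1, Cox5a and Ndufv3 lay higher in CD206pos cells and Ndufv1 lower, against 12.8% and 11.8% of all tested genes that lay wholly higher or wholly lower. DESeq2 and limma-voom also called 0 members, where they called 9.83% and 6.09% of all genes they tested, and both had Cox7a1 and Ndufv1 at an unadjusted p under 0.05.

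The differences were small for nearly all members. The median log2 fold change of CD206pos over CD206neg was 0.03 over the 77 members, with 41 positive and 36 negative, and −0.004 over all tested genes. The split moved with the scaling and with single libraries, to 26 positive with library totals, 28 with limma-voom, 19 without CD206pos replicate 1 and 57 without CD206pos replicate 2. The median size of the log2 fold change was 0.11 for the members, with a median standard error (SE) of 0.19. Members are abundant, so they are set beside the 6866 tested genes with a mean of at least 20 CPM, whose median size was 0.25 with a median SE of 0.22. Of the 70 members at this level, 69 had a log2 fold change of a size under 0.3, against 57.2% of all genes at this level, and their values ran from −0.30 (Ndufs1) to 0.46 (Ndufc1). The groups lay apart for 3 of these 70 members and for 27.1% of the genes at this level.

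**Figure D1:**
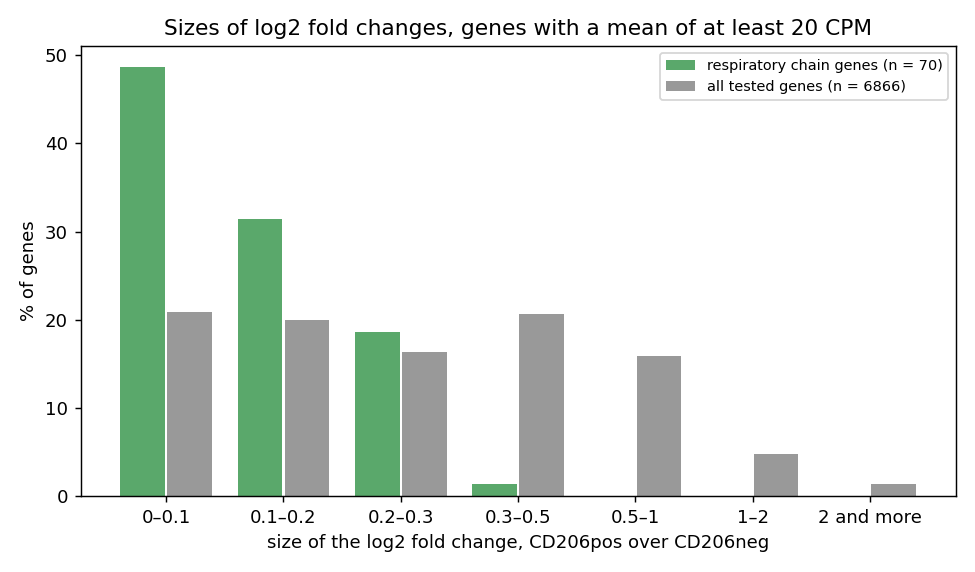
Percent of genes (vertical axis) by the size of the log2 fold change of CD206pos over CD206neg (horizontal axis, bins of unequal width), for the 70 respiratory chain genes (green) and the 6866 tested genes (grey) with a mean of at least 20 CPM. Among the respiratory chain genes 48.6% lie under 0.1 and none lies at 0.5 or above.

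The intervals show how large a difference these libraries leave possible for each gene. The 95% interval of the fold change lay inside 2-fold in both directions for 72 of the 77 members, and inside 1.5-fold for 46. Among all tested genes with a mean of at least 20 CPM it lay inside 2-fold for 72.5%. The 5 members whose interval reached past 2-fold were Ndufc1, Cox6b2, Cox7a1, Atp5l and Atp5g2. A p that misses the threshold does not show that the levels are equal.

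**Figure D2:**
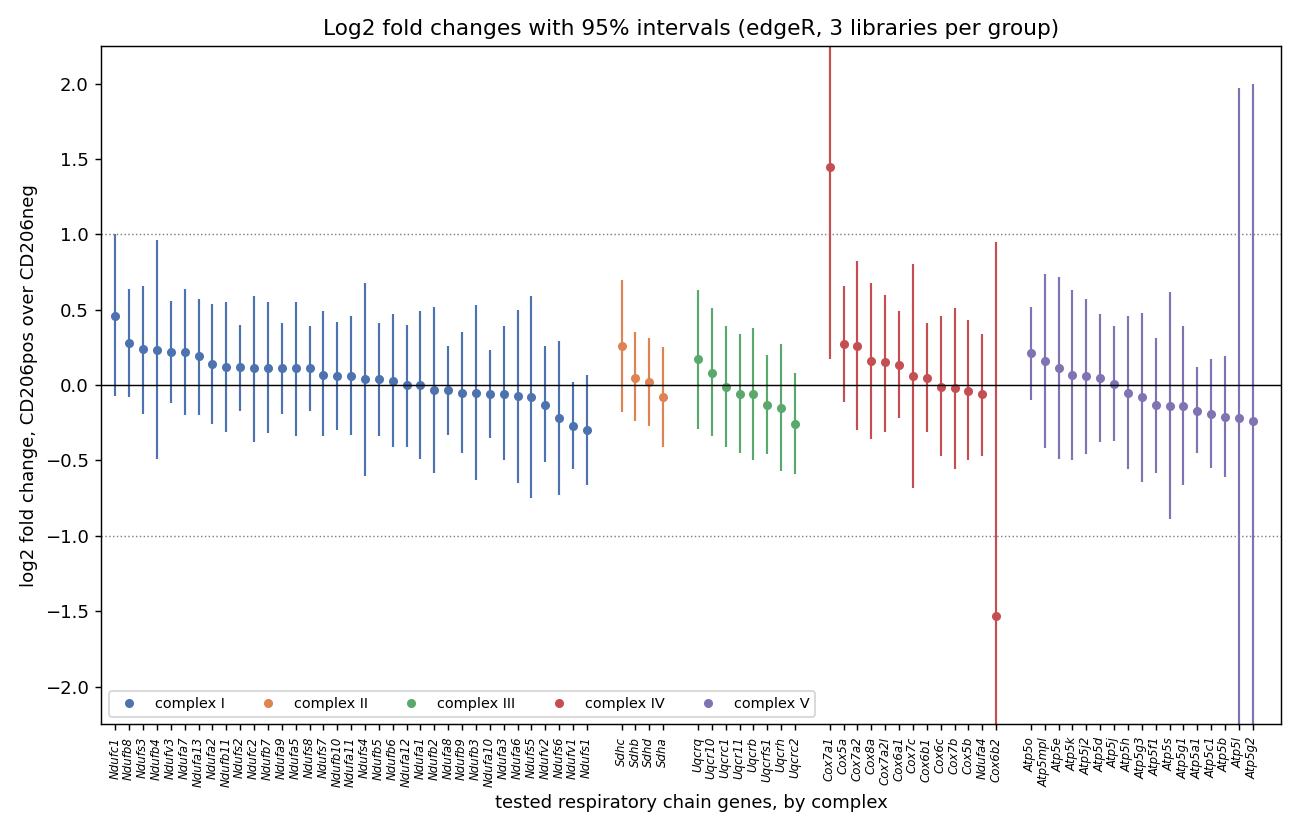
Log2 fold change of CD206pos over CD206neg (vertical axis) for the 77 tested genes, ordered within each complex (horizontal axis, one colour per complex); points are edgeR estimates from 3 libraries per group and lines are 95% intervals, cut at the edges of the plot for Cox7a1, Cox6b2, Atp5l and Atp5g2, and dotted lines mark a 2-fold difference. The interval of Cox7a1 (0.17 to 2.74) is the one that does not cross 0.

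One library moved most members together. CD206pos replicate 1 had the highest value of the 6 libraries for 52 of the 77 members, while it was the highest library for 18.2% of all tested genes. On the scale of log2(CPM + 0.5), the median member lay 0.31 above its 6-library mean in CD206pos replicate 1, and 0.20 and 0.10 below it in CD206pos replicates 2 and 3 (medians −0.20 and −0.10). In the CD206neg libraries the medians were 0.05, −0.09 and 0.04. The median SD of a member within its group was 0.29 on this scale in CD206pos cells and 0.13 in CD206neg cells. Compared litter by litter, the median member differed by 0.24 (CD206pos minus CD206neg) in litter 1, by −0.12 in litter 2 and by −0.11 in litter 3, with 62, 25 and 18 of 77 members higher in the CD206pos library. Without CD206pos replicate 1 the median log2 fold change of the members was −0.16, and again no member was called.

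CD206pos replicate 1 also stood apart for short genes outside the set. The members with a principal transcript under 1000 bases (45 of 77) lay a median of 0.38 above their mean in CD206pos replicate 1, and the 32 longer members 0.17 above it. Across the 77 members the Spearman correlation of the deviation in this library with transcript length was −0.42, and in the others it was 0.34 and 0.03 (CD206pos replicates 2 and 3) and 0.40, 0.21 and −0.25 (CD206neg replicates 1 to 3). These are descriptions over genes that share a library, and trends of a like size the other way stood in CD206neg replicate 1 and CD206pos replicate 2. Over the tested genes with a mean of at least 20 CPM, 160 had an exon length under 1000 bases, 20 of them members. The other 140 lay a median of 0.36 above their mean in CD206pos replicate 1, −0.16 and −0.11 in CD206pos replicates 2 and 3, and between −0.10 and 0.05 in the CD206neg libraries. The 6706 longer genes lay 0.03 above their mean in CD206pos replicate 1. The 92 cytosolic ribosomal protein genes had medians of 0.47, −0.32 and −0.47 in CD206pos replicates 1, 2 and 3, and of 0.28, 0.12 and −0.08 in CD206neg replicates 1, 2 and 3, so that CD206pos replicate 3 lay as far from the mean as replicate 1. The part of transcript length or of 1 library in the values of the members was not tested.

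**Figure D3:**
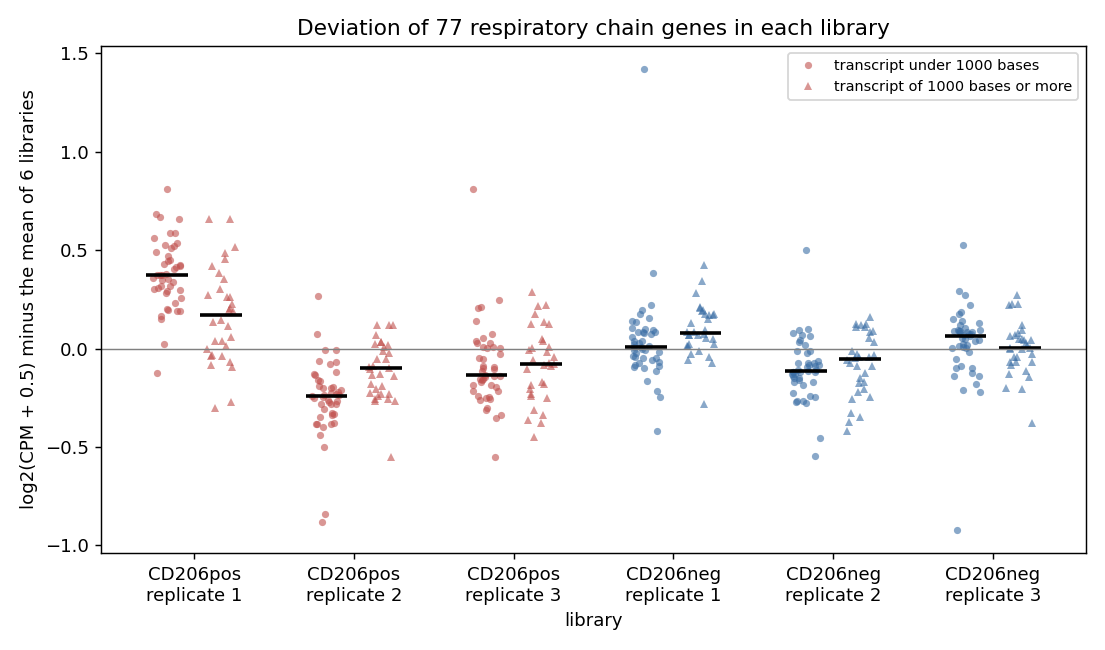
Deviation of each of the 77 tested genes from its mean over the 6 libraries, on the scale of log2(CPM + 0.5) (vertical axis), in each library (horizontal axis; CD206pos in red, CD206neg in blue); circles are genes with a principal transcript under 1000 bases, triangles the longer ones, and bars the medians. CD206pos replicate 1 lies above the other libraries, with medians of 0.38 for the short and 0.17 for the long transcripts.

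Summed over the 77 members, the respiratory chain took up 20841, 17112 and 17370 CPM in CD206pos cells, against 20200, 18150 and 18259 CPM in CD206neg cells. The groups overlapped, with means of 18441 ± 2083 CPM in CD206pos cells and 18870 ± 1153 CPM in CD206neg cells (SD, n = 3 each) and a ratio of 0.977. Without CD206pos replicate 1 the ratio was 0.914. In reads as counted the members took 2.01%, 1.67% and 1.68% of all reads in CD206pos libraries, against 2.04%, 1.87% and 1.91% in CD206neg libraries.

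Levels per length are given as TPM (reads per kilobase of exon length, scaled to the same total in every library), from the exon length in the deposited files. The median tested member had 285 TPM over the 6 libraries, against 16.5 TPM for all tested genes, and 54 of the 77 members lay in the highest 10% of tested genes. Atp5b and Atp5a1, the catalytic beta and the alpha subunit of ATP synthase, led complex V with 1809 ± 205 and 1640 ± 122 TPM in CD206pos cells, against 2277 ± 393 and 2003 ± 160.1 TPM in CD206neg cells (SD, n = 3 each). Over the 6 libraries they were also the highest of the whole set, while in CD206pos cells Cox6b1 lay above Atp5a1. Cox6b1 led complex IV, with 1680 ± 242 TPM in CD206pos cells and 1778 ± 84.8 TPM in CD206neg cells. Ndufa2 led complex I, with 1176 ± 194 TPM in CD206pos cells and 1169 ± 109 TPM in CD206neg cells. Sdhd, a membrane anchor, led complex II, with 1013 ± 28.5 TPM in CD206pos cells and 1092 ± 61.0 TPM in CD206neg cells. Uqcr10, a small subunit, led complex III, with 991 ± 192 TPM in CD206pos cells and 1027 ± 90.7 TPM in CD206neg cells.

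Below the leading genes, neighbours in the order often lay within each other's SD. In complex I, Ndufs8 and Ndufa8 had 751 ± 54.9 and 694 ± 14.7 TPM in CD206pos cells, against 756 ± 32.3 and 775 ± 67.7 TPM in CD206neg cells, so that their order turned between the groups. In complex II, Sdha and Sdhb had 554 ± 105 and 576 ± 46.1 TPM in CD206pos cells, against 634 ± 28.0 and 604 ± 49.9 TPM in CD206neg cells, and likewise could not be ordered. Sdhc, the other membrane anchor of complex II, stood clear below them at 136 ± 22.9 TPM in CD206pos cells and 124 ± 16.6 TPM in CD206neg cells. The lowest tested genes of complex I were Ndufb2, with 14.7 ± 2.02 TPM in CD206pos cells and 16.4 ± 2.00 TPM in CD206neg cells, and Ndufb4, with 40.0 ± 10.4 TPM in CD206pos cells and 37.3 ± 3.59 TPM in CD206neg cells. Uqcrb and Uqcrh were lowest in complex III, at 221 ± 36.3 and 251 ± 44.5 TPM in CD206pos cells, against 253 ± 20.6 and 305 ± 9.71 TPM in CD206neg cells.

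The order depended on the length used. With the length of the principal transcript in place of all exons of the gene, the median member had 547 TPM, and Ndufb8 moved to the first place of complex I, with 1332 TPM in place of 288 TPM. Sdhb then led complex II (1157 TPM over the 6 libraries), Uqcrc1 led complex III (1882 TPM), and Atp5b and Cox6b1 kept the first place of complexes V and IV. Of the genes lowest per length, Ndufb2 and Ndufb4 in complex I and Sdhc in complex II kept their places, while Uqcrq (376 TPM) was lowest in complex III and Uqcrh moved to the fourth place (629 TPM). Some members share sequence with other genes, at other places of the genome or at their own locus, and the counting program's default leaves out reads with several alignments and reads on overlapping features. Of the tested members, 12 shared at least 30% of their 50-base windows with transcripts of other genes, and these had a median of 137 TPM, against 326 TPM for the other 65. Atp5g2 shared 87.4% and Atp5l 84.8%, and they were the lowest genes of complex V: Atp5l, which encodes subunit g, had 0.537 ± 0.341 TPM in CD206pos cells and 0.696 ± 0.261 TPM in CD206neg cells. The values of Atp5g2, Atp5l, Cox7c (53.0%), Atp5o (50.3%), Atp5h (47.9%) and Uqcrb (43.4%) are uncertain on this account, as to a lesser degree are those of Ndufs3, Atp5f1, Ndufb4, Ndufb6, Cox5a and Ndufs5 (31.1% to 39.7%). For Ndufb6 and Cox5a all or most of the sharing was with a gene that overlaps them on the opposite strand (Smim27 and Gm26631). Atp5o stood among the higher genes of complex V at 406 TPM in spite of its sharing. It shares 24.6% of its windows with a second gene model of the same name. That model is among 8 that overlap the span of Atp5o, so its level is no clear exception. The part of sharing in the levels was not tested. Among the 12 members with the smallest p, other gene models overlap those of Ndufs1, Ndufb8, Uqcrc2, Cox5a, Atp5a1 and Atp5o. They also overlap those of other genes whose values are given, such as Atp5b, Sdha, Ndufv2 and Cox4i1. At such places reads on shared exons were not counted and antisense reads cannot be separated.

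**Figure D4:**
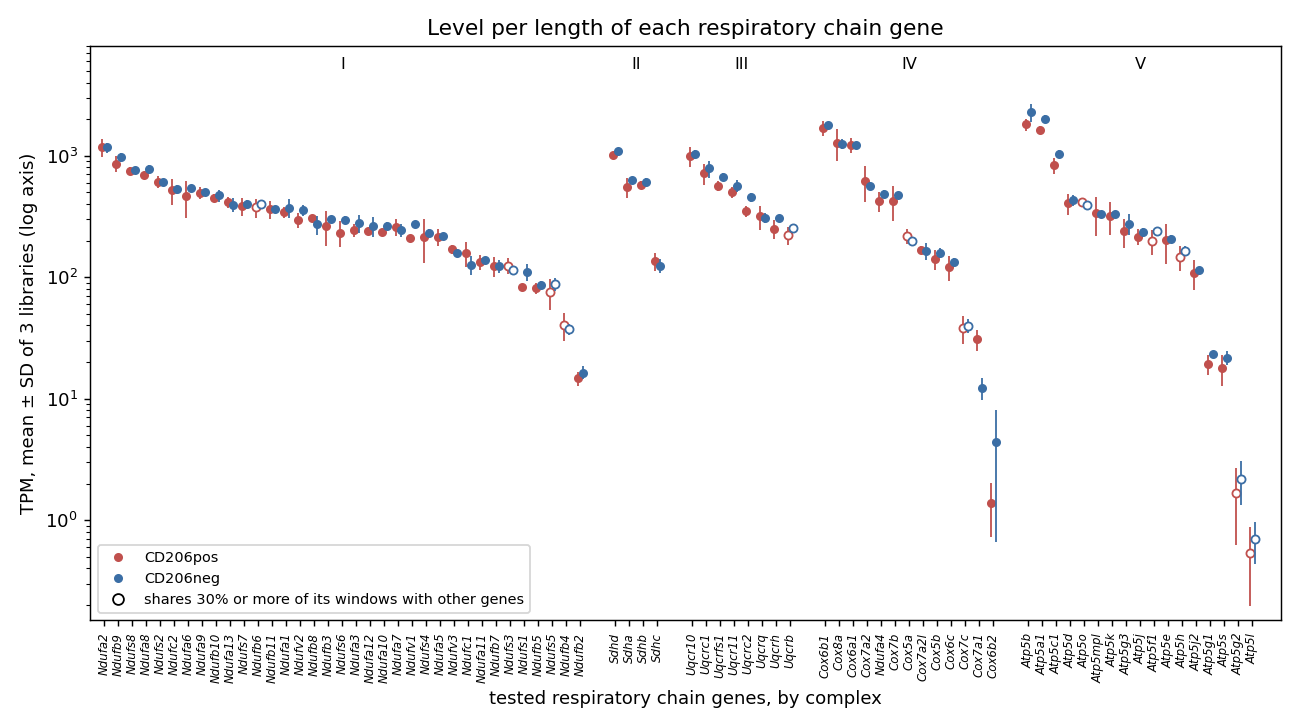
Level per length in TPM (vertical log axis) of the 77 tested genes, by complex (horizontal axis); points are means and lines SD of 3 libraries, with CD206pos in red left of CD206neg in blue, and open points mark the 12 genes that share at least 30% of their 50-base windows with other genes. The groups lie close together for most genes from Atp5b (2043 TPM over the 6 libraries) down to Atp5l (0.616 TPM). Exceptions are Cox7a1 (30.8 ± 6.03 TPM in CD206pos and 12.3 ± 2.49 TPM in CD206neg) and Cox6b2 (1.38 ± 0.66 and 4.37 ± 3.71 TPM, with overlapping SD).

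In complex I, 35 of 38 genes were tested, and their median log2 fold change was 0.06 (21 positive, 14 negative). The 3 untested genes, Ndufa11b, Ndufs6b and Ndufb4c, had at most 0.289 CPM in any library. The 7 core subunits, which carry the flavin and iron-sulphur centres, had a median of 0.07, and the 28 tested accessory subunits 0.05. Ndufv1, the core subunit that binds NADH and flavin (chromosome 19 from 4007497 to 4012806), had 186, 169 and 188 CPM in CD206pos cells, against 224, 214 and 216 CPM in CD206neg cells. All CD206pos libraries lay below all CD206neg libraries, with a log2 fold change of −0.27 (SE 0.13, adjusted p = 0.33). Ndufv2, its partner subunit, had 248, 177 and 188 CPM in CD206pos cells, against 220, 201 and 247 CPM in CD206neg cells, with overlapping groups.

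Ndufv3, an accessory subunit of the same module (chromosome 17 from 31520115 to 31531326), had 166, 135 and 135 CPM in CD206pos cells, against 132, 119 and 124 CPM in CD206neg cells. Its groups lay apart in the other direction, with a log2 fold change of 0.22 (SE 0.15, adjusted p = 0.53), or 0.11 without CD206pos replicate 1. Ndufs1, the largest core subunit with iron-sulphur centres (chromosome 1 from 63143596 to 63176833), had 248, 220.5 and 224 CPM in CD206pos cells, against 341, 269 and 239.6 CPM in CD206neg cells. The groups met at CD206pos replicate 1 and CD206neg replicate 3, and the log2 fold change was −0.30 (SE 0.16, adjusted p = 0.40), or −0.14 without CD206neg replicate 1. Ndufc1, an accessory subunit (chromosome 3 from 51404677 to 51408988), had 109, 70.2 and 68.2 CPM in CD206pos cells, against 56.6, 51.4 and 71.0 CPM in CD206neg cells. Only CD206pos replicate 1 stood clear of the CD206neg libraries, and the log2 fold change of 0.46 (SE 0.24, adjusted p = 0.37) was the largest of complex I and was 0.21 without that library. Ndufb8, an accessory subunit of the membrane arm, had 332, 312 and 342 CPM in CD206pos cells, against 281, 216 and 313 CPM in CD206neg cells (log2 fold change 0.28, SE 0.16, adjusted p = 0.43). The groups overlapped at CD206neg replicate 3, and the log2 fold change was 0.14 without CD206neg replicate 2.

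The 4 genes of complex II, which also acts in the citric acid cycle, were close between the groups, with a summed 1731, 1827 and 1859 CPM in CD206pos cells, against 1880, 1687 and 1845 CPM in CD206neg cells. Sdha, the flavoprotein, had 648, 868 and 827 CPM in CD206pos cells, against 848, 776 and 854 CPM in CD206neg cells, and here CD206pos replicate 1 was the lowest library. Sdhb, the iron-sulphur protein, had 433, 418 and 477 CPM in CD206pos cells, against 437, 386 and 458 CPM in CD206neg cells. Sdhd had 461, 399.7 and 427 CPM in CD206pos cells, against 455, 391 and 427 CPM in CD206neg cells, and its log2 fold change of 0.02 had a 95% interval of −0.27 to 0.31. Sdhc had 189, 141 and 128 CPM in CD206pos cells, against 140.2, 135 and 106 CPM in CD206neg cells. The groups overlapped for each of the 4 genes, and the log2 fold change of Sdhc, 0.26 (SE 0.19, adjusted p = 0.57), was the largest of the complex and was 0.08 without CD206pos replicate 1.

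All 8 genes of complex III were tested, with a median log2 fold change of −0.06 (2 positive, 6 negative). Uqcrc2, a core protein of the matrix side (chromosome 7 from 120635176 to 120659524), had 342, 313 and 264 CPM in CD206pos cells, against 405, 360 and 333 CPM in CD206neg cells. Each CD206pos library lay below the CD206neg library of its litter, while CD206pos replicate 1 lay above CD206neg replicate 3, and the log2 fold change was −0.26 (SE 0.15, adjusted p = 0.44). Uqcrfs1, the Rieske iron-sulphur protein, had 302, 256 and 234 CPM in CD206pos cells, against 305, 299 and 262 CPM in CD206neg cells (log2 fold change −0.13, SE 0.14, adjusted p = 0.74).

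Of the 19 genes of complex IV, 13 were tested. The other 6 had 39 reads or fewer over the 6 libraries, and among them Cox6c2 has no annotated coding sequence in its principal transcript. Most of these are isoforms known from other tissues: Cox6a2, the heart and muscle form of subunit 6a, had 39 reads in all, and Cox7b2, Cox8b, Cox8c and Ndufa4l2 had 0 reads in every library, which at these depths allows up to 0.165 to 0.179 CPM by counting error. The widely expressed forms were abundant: Cox6a1 had 361, 268 and 265 CPM in CD206pos cells, against 290.1, 260.1 and 264 CPM in CD206neg cells, and Cox8a had 337, 200.2 and 187 CPM in CD206pos cells, against 217, 234 and 198 CPM in CD206neg cells. Ndufa4, named for complex I but known as a complex IV subunit, had 254, 171 and 178 CPM in CD206pos cells, against 203, 202 and 226 CPM in CD206neg cells.

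Cox7a1, the heart and muscle isoform of subunit 7a (chromosome 7 from 30184144 to 30186078), had the smallest p of the set. It had 6.42, 4.24 and 6.42 CPM in CD206pos cells, against 2.45, 2.20 and 1.58 CPM in CD206neg cells. All CD206pos libraries lay above all CD206neg libraries, from 74 to 111 reads a library against 28 to 45. The mean was 2.74-fold higher in CD206pos cells, with a log2 fold change of 1.45 (SE 0.57, 95% interval 0.17 to 2.74, unadjusted p = 0.031). The adjusted p of 0.22 did not pass, and it ran from 0.062 (DESeq2) to 0.59 over the alternatives, with the log2 fold change between 1.16 and 1.63. The widely expressed isoform Cox7a2 had 291, 156 and 160.3 CPM in CD206pos cells, against 182, 169.7 and 155 CPM in CD206neg cells, with overlapping groups. Per length, Cox7a1 made up 3.75%, 4.58% and 6.60% of Cox7a1 and Cox7a2 together in CD206pos cells, against 2.33%, 2.24% and 1.76% in CD206neg cells. The groups lay apart in this share too, and CD206pos replicate 1 had the lowest CD206pos share. Cox7a2l, a related protein that takes part in the assembly of supercomplexes, had 72.3, 58.5 and 68.3 CPM in CD206pos cells, against 68.6, 48.2 and 63.2 CPM in CD206neg cells.

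Cox5a, a subunit of the matrix side of complex IV (chromosome 9 from 57521274 to 57532426), had 193, 143 and 141 CPM in CD206pos cells, against 139, 121 and 135 CPM in CD206neg cells. The groups lay apart by a narrow margin, and the log2 fold change was 0.27 (SE 0.17, adjusted p = 0.48), or 0.11 without CD206pos replicate 1. Cox6b2, the testis form of subunit 6b (chromosome 7 from 4751792 to 4753094), had 0.734, 0.229 and 0.636 CPM in CD206pos cells, against 3.10, 0.695 and 0.846 CPM in CD206neg cells. Its log2 fold change of −1.53 (SE 1.09, adjusted p = 0.56) rested on 4 to 57 reads a library and on CD206neg replicate 1, and was −0.53 without that library.

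**Figure D5:**
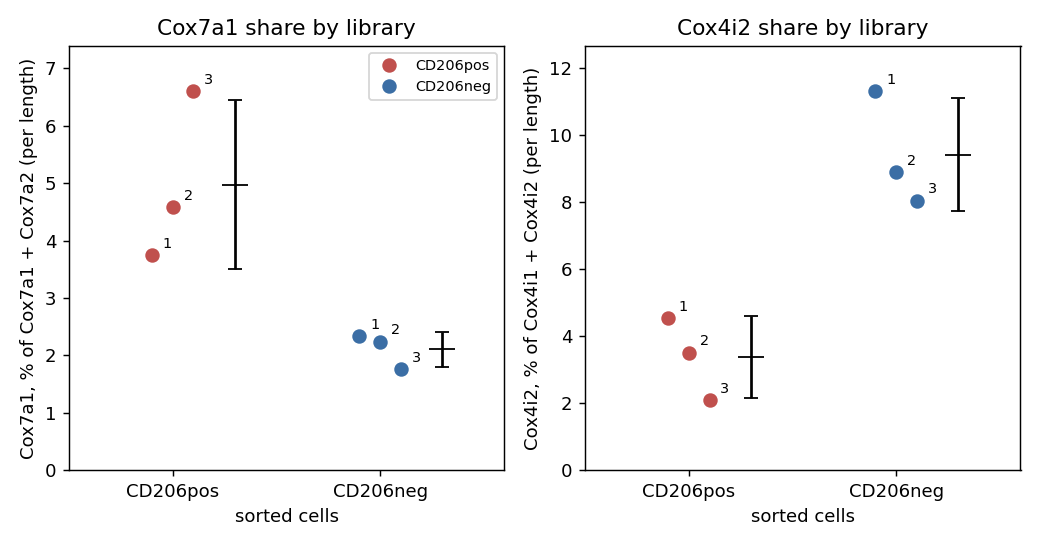
Share of the less abundant isoform per length in percent (vertical axis), Cox7a1 of Cox7a1 and Cox7a2 on the left and Cox4i2 of Cox4i1 and Cox4i2 on the right, in CD206pos (red) and CD206neg cells (blue); points are libraries with their replicate number, and bars the mean ± SD of 3 libraries. Cox7a1 lies at 3.75% to 6.60% in CD206pos cells and 1.76% to 2.33% in CD206neg cells, and Cox4i2 at 2.09% to 4.54% in CD206pos cells and 8.04% to 11.3% in CD206neg cells.

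All 17 genes placed in complex V by symbol were tested, among them Atp5s, which is not a subunit. Their median log2 fold change was −0.08 (7 positive, 10 negative). Their sum was 7998, 6384 and 6105 CPM in CD206pos cells, against 8318, 7571 and 6565 CPM in CD206neg cells. The groups overlapped, at means of 6829 ± 1022 CPM in CD206pos cells and 7484 ± 879.8 CPM in CD206neg cells (SD, n = 3 each), while each CD206pos library lay below the CD206neg library of its litter. In this sum the most abundant genes weigh most. Counted by gene, litter 1 went the other way, with 14 of 17 genes higher in the CD206pos library. In litters 2 and 3 there were 1 and 2 of 17. Atp5a1 had 1820, 1840 and 1640 CPM in CD206pos cells, against 2130, 2037 and 1780 CPM in CD206neg cells (log2 fold change −0.17, SE 0.13, adjusted p = 0.58). Atp5b had 3112, 2461 and 2357 CPM in CD206pos cells, against 3569, 3145 and 2433 CPM in CD206neg cells (log2 fold change −0.21, SE 0.18, adjusted p = 0.64). For both genes the CD206pos library was the lower of the pair in each of the 3 litters, and the groups overlapped. Atp5o, the subunit that links the head to the stator (chromosome 16 from 91684398 to 91931687), had 344, 300.1 and 333 CPM in CD206pos cells, against 303, 249 and 291 CPM in CD206neg cells (log2 fold change 0.21, SE 0.14, adjusted p = 0.50), with its shared windows as above.

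Subunit c, which forms the rotating ring of ATP synthase, is encoded by 3 genes for the same mature protein. Atp5g3 supplied most of the reads, with 246, 143 and 151 CPM in CD206pos cells, against 236, 178 and 156 CPM in CD206neg cells. Atp5g1 had 41.1, 28.1 and 28.6 CPM in CD206pos cells, against 38.3, 34.7 and 34.6 CPM in CD206neg cells. Atp5g2 had 1.71, 0.687 and 0.521 CPM in CD206pos cells, against 0.762, 1.62 and 1.07 CPM in CD206neg cells, a level that its shared windows make uncertain. The groups overlapped for each of the 3 genes.

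The start regions of the members were compared for short motifs, since the nuclear respiratory genes are known as targets of NRF1, of the ETS factor GABPA and of YY1. Windows of 250 bases before to 50 bases from the RefSeq start (GRCm38.p6) were at hand for 68 members, and 71 windows belonged to 66 tested members. An NRF1-type motif (GCGCATGC, either strand) stood in 14.1% of these windows, against 5.33% of 12162 windows of tested genes and 2.71% of all 32851 windows. An ETS-type motif (CCGGAAG, either strand) stood in 22.5%, 18.2% and 8.86% of the same windows. A YY1-type motif (AAGATGGCG, either strand) stood in 9.86%, 3.05% and 1.4%, and 6 of its 7 matches in members began at bases 23 to 36 of the transcript. A TATA box (TATAAA, either strand) stood in 8.45%, 7.15% and 13.6%, with no member match from 40 to 20 bases before the start, and GGGCGG, an SP-type motif, in 39.4%, 61.9% and 35.7%. A match is a run of letters and does not show that a factor binds there.

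The NRF1-type and ETS-type motifs stood together in the windows of Atp5k, Cox6a1, Sdhb, Uqcr11 and Atp5l. Atp5k encodes subunit e of ATP synthase and Uqcr11 a small subunit of complex III. For Atp5l the matches lie outside the stretch printed here, and it is not shown. Cox7a1, with the smallest p of the set, holds neither motif, as do most of the members with a window. Of the 66 tested members with a window, 10 held the NRF1-type and 16 the ETS-type motif. The starts below are those of the other 4 genes with both motifs and of Cox7a1. Each runs 5′ to 3′ on the gene's strand from 170 bases before the start through the first 20 bases of the transcript (RefSeq, GRCm38.p6), and capitals mark GCGCATGC and CCGGAAG on either strand; GCGCATGCGC is 2 overlapping matches.
Atp5k, chr5:108434380-108434569, minus strand: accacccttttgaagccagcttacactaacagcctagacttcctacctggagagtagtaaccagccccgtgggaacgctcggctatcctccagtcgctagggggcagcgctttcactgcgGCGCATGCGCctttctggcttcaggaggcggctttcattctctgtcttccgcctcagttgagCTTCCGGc
Cox6a1, chr5:115348939-115349128, minus strand: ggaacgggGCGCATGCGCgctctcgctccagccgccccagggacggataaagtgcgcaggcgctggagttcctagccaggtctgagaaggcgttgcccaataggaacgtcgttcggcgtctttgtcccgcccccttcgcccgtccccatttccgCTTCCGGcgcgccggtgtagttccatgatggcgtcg
Sdhb, chr4:140961101-140961290, plus strand: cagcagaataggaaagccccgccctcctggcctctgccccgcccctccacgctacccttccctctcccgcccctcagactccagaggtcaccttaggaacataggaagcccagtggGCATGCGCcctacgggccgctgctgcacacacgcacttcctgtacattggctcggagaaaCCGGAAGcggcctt
Uqcr11, chr10:80406802-80406991, minus strand: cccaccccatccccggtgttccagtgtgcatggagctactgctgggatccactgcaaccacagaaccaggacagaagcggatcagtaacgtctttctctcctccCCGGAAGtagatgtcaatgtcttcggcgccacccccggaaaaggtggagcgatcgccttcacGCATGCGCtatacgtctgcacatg
Cox7a1, chr7:30184001-30184190, plus strand: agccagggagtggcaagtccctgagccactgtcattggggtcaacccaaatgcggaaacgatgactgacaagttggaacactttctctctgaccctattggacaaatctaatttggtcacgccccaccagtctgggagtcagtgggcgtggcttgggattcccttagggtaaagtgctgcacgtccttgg
Atp5k had 94.8, 49.9 and 59.4 CPM in CD206pos cells, against 66.9, 61.8 and 65.8 CPM in CD206neg cells, and Uqcr11 had 124, 93.9 and 112 CPM in CD206pos cells, against 118, 99.2 and 127 CPM in CD206neg cells. The groups overlapped for both genes, as they did for Cox6a1 and Sdhb.

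The transcription factors named for these genes were not called either. Nrf1 had 173, 159 and 136 CPM in CD206pos cells, against 167, 149.9 and 142 CPM in CD206neg cells, and its log2 fold change of 0.03 (SE 0.15) changed sign in 6 of 19 alternatives. Gabpa had 69.4, 84.3 and 57.6 CPM in CD206pos cells, against 36.3, 69.0 and 67.9 CPM in CD206neg cells, with overlapping groups. Yy1 had a log2 fold change of 0.05 (SE 0.29, adjusted p = 0.97), which changed sign in 5 of 19 alternatives. Tfam, which packages and transcribes mitochondrial DNA, had 57.6, 61.3 and 51.8 CPM in CD206pos cells, against 81.8, 82.3 and 56.8 CPM in CD206neg cells (log2 fold change −0.37, SE 0.20, adjusted p = 0.40). Myc, Esrra and Ppargc1b had log2 fold changes of −0.44 (SE 0.25), 0.58 (SE 0.60) and 0.46 (SE 0.49). Ppargc1a, a coactivator of mitochondrial biogenesis, had 0 reads in all CD206pos libraries, and among CD206neg libraries it was found in replicate 2 alone, at 1.62 CPM.

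Other lists of the same pathway gave no called gene, where 4.87% of all tested genes were called. Several of these lists are short, so their counts of 0 are not read as a result about them. None was called among 7 subunits and carriers of the chain outside the symbol rule, 7 tested genes of the mitochondrial genome, 16 complex I assembly factors, 33 assembly factors of complexes II to V, 19 genes of the citric acid cycle and pyruvate dehydrogenase, 22 import and chaperone genes, 7 carriers and porins, 16 regulators of biogenesis and mitochondrial DNA, 6 antioxidant enzymes and 77 mitochondrial ribosomal proteins. Their median log2 fold changes ran from −0.38 (biogenesis) to 0.03 (assembly of complexes II to V). The groups lay apart for 5 of the 19 citric acid cycle genes (26.3%), all lower in CD206pos cells. Of all tested genes 11.8% lay wholly lower, and 24.6% lay apart in either direction. For the mitochondrial ribosomal proteins the groups lay apart for 5.19%, with 2 higher and 2 lower in CD206pos cells. Of the 19 citric acid cycle genes 16 had a negative log2 fold change, and the lowest adjusted p was 0.21 (Pdhb, the beta subunit of pyruvate dehydrogenase, 174, 173 and 178 CPM in CD206pos cells, against 233, 213 and 216 CPM in CD206neg cells).

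A pair of genes outside the rule was singled out after their values were seen. Cox4i2, the isoform of subunit 4 known from lung and from low oxygen, had 28.5, 13.3 and 8.74 CPM in CD206pos cells, against 62.2, 40.5 and 34.6 CPM in CD206neg cells. All CD206pos libraries lay below all CD206neg libraries, at a log2 fold change of −1.44 (SE 0.44, adjusted p = 0.12), and the adjusted p ran from 0.013 to 0.50 over the alternatives. It passed the threshold with the replicate block, with DESeq2, with limma-voom and without CD206pos replicate 1. Cox4i1, the widely expressed isoform, had 1178, 719 and 804 CPM in CD206pos cells, against 957, 815 and 779 CPM in CD206neg cells, so that Cox4i2 made up 3.38% ± 1.23 of both per length in CD206pos cells and 9.43% ± 1.71 in CD206neg cells (SD, n = 3 each). Polrmt, the RNA polymerase of mitochondria, had 41.9, 38.2 and 24.5 CPM in CD206pos cells, against 73.1, 67.6 and 49.0 CPM in CD206neg cells (log2 fold change −0.86, SE 0.26, adjusted p = 0.12), and passed the threshold with the replicate block and with DESeq2.

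The subunits encoded by mitochondrial DNA could be set beside the nuclear ones for 7 of 13 genes. Their sum was 8118, 5206 and 4434 CPM in CD206pos cells, against 5287, 4575 and 7071 CPM in CD206neg cells, with overlapping groups and CD206pos replicate 1 the highest. mt-Cytb, the cytochrome b of complex III, had 3939, 3010 and 2822 CPM in CD206pos cells, against 2886, 2221 and 4234 CPM in CD206neg cells. The sum includes mt-Nd4 and mt-Co1, which share 62.2% and 51.1% of their 50-base windows with other gene models. Without them it was 6348, 4194 and 3722 CPM in CD206pos cells, against 4230, 3650 and 5839 CPM in CD206neg cells, again overlapping. The other 6 were near 0 reads. Of these, mt-Co2, mt-Co3, mt-Atp6, mt-Nd3 and mt-Nd4l share 98.0% to 100% of their windows with other gene models, while mt-Atp8 shares none and overlaps mt-Atp6. Levels are not read from these counts. Ndufb1-ps, left out by its symbol, had 112, 50.6 and 52.9 CPM in CD206pos cells, against 72.1, 77.1 and 84.5 CPM in CD206neg cells, and followed the members in being highest in CD206pos replicate 1.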

How the data were processed

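Raw read counts per gene were deposited as 1 file for each library. Per the file headers, the authors counted them with featureCounts 1.5.2 over the exons of GENCODE vM14 without settings for strand, paired reads, multiple alignments or overlapping features. That program then leaves out reads with several alignments and reads on overlapping genes, and it cannot separate a gene from its antisense partner. STAR 2.3, FastQC, mm10 and GRCm38.p5 are named in the submitters' processing notes, while read length and strandedness are not given in the sources read. GRCm38 coordinates are printed as in the files, counted from 1. Symbols from GENCODE M21 matched 51633 of 51912 identifiers, and the others held at most 0.014% of the reads.

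From the counts, edgeR 4.0.16 (R 4.3.3) gave CPM scaled by TMM, log2 fold changes, standard errors and adjusted p-values over the 12668 genes that passed filterByExpr, with group as the only term. SE and intervals come from the quasi-likelihood fit; floors (3 counts) cover counting error only, since without molecular identifiers PCR copies of 1 molecule count as separate reads. TPM used the exon length in the files, and shared windows were counted between GENCODE M21 transcripts. The smallest two-sided exact permutation p for 3 against 3 libraries is 0.1, so single values were not tested that way. The fit was tested on simulated data.

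Libraries with the same number in their titles were read as 1 litter, and the correlation of their deviations from their groups' means was 0.089, 0.039 and 0.18 over the tested genes. Alternatives were the replicate block, RLE, upper-quartile and total scaling, looser (1 read) and stricter (5 CPM) filters, no robust estimation, DESeq2 1.42.0, limma-voom (limma 3.58.1), removal of globin, mitochondrial-genome and ribosomal protein genes, and leaving out each library or litter. The members, the lists and the rule for named genes were chosen with earlier results of these data known. The rule takes the 12 members with the smallest p where fewer are called, the 2 highest and 2 lowest per length in each complex, isoform sets, called genes of the other lists and regulators; Cox4i2 and Polrmt were added after their values were seen.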

Additional observations from a re-analysis of the deposited data

How the results depend on the processing

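No member was called under any of the 19 alternatives in which all genes were refitted, and the median member log2 fold change lay between −0.16 (without CD206pos replicate 1) and 0.08 (without CD206pos replicate 2). The replicate block gave a median of 0.01 and again 0 called members; it passed Cox4i2 and Polrmt and changed the call of no member. The number of all genes called moved: DESeq2 called 750 higher and 667 lower in CD206pos cells, against 376 and 241 in edgeR. Leaving out 1 library or litter gave 2 to 355 called higher and 1 to 206 called lower, with the fewest without replicate 2 of both groups; every such removal except that of CD206pos replicate 1 moved the number called higher by over 1.5 times. The summed CPM ratio of CD206pos over CD206neg lay between 0.914 and 1.01. Levels per length moved with the length used, from a median of 285 TPM by all exons to 547 TPM by the principal transcript. Of the named genes, Nrf1 (0.03; −0.05 to 0.09 with a library or litter left out) turned negative with library totals (−0.06), without CD206pos replicate 1 (−0.05), without replicate 2 (−0.04), without CD206pos replicate 2 and CD206neg replicate 3 (−0.02 each) and without globin, mitochondrial-genome and ribosomal protein genes (−0.00). Yy1 (0.05; −0.34 to 0.37 with a library or litter left out) turned negative without replicate 2 (−0.34), without CD206pos replicate 2 (−0.27), without CD206neg replicate 1 (−0.05), with library totals (−0.04) and without CD206neg replicate 2 (−0.01). The causes were not tested. Among other named single genes, 39 results no longer passed and 6 newly passed the threshold under an alternative. In edgeR, Cd68 no longer passed without CD206pos replicate 2 or 3 or CD206neg replicate 1 or 2, nor Aif1 without these or CD206pos replicate 1 (adjusted p 0.052 to 0.12). With replicate 2 of both groups left out, neither Cd68 (adjusted p = 0.31) nor Aif1 (0.29) passed. Cd68 also failed without replicate 3 of both groups (0.087), and Aif1 without replicate 1 of both groups (0.1). Depth limits the genes with few reads, such as Cox7a1, Cox6b2, Atp5g2 and Atp5l, whose intervals reach past 2-fold.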
